A study of Mus musculus with 24 samples.

Results

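Proliferation in Panc02 tumors was followed through 48 cell cycle genes, 20 of S phase and 28 of G2 and mitosis (G2/M), out of 32285 genes in the count table. They were the rows of the table that carried the listed symbols. Single-cell RNA sequencing had been done on subcutaneous flank tumors of Panc02, a mouse pancreatic cancer cell line, in wild-type male C57BL/6 mice aged 6 to 7 weeks. The 8 treatments were Isotype Control, Anti-PD-1, Anti-CTLA-4, both antibodies, PancVAX, PancVAX with either antibody, and PancVAX with both. PancVAX is a vaccine of tumor neoantigen peptides (50 ug of each peptide) given with AddaVax and a STING agonist on days 12 and 19, and mice without it received PBS. Anti-CTLA-4 (100 ug) was given on days 15 and 22 and Anti-PD-1 (100 ug) 2 times a week from day 12, and tumors were taken on day 38. Tumors were pooled within each treatment, and 1 library was made from whole tumor and 1 after Percoll, a density gradient used to enrich leukocytes. The cells of both libraries of a treatment were summed and are called a pool here, which gives 8 pools, 4 with PancVAX and 4 without, and every P value below compares pools or, for the preparations, single libraries, and never mice. Panc02 is a single transplanted line, so the tumor cells of all treatments share 1 origin.

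A cell that enters S phase loads and fires replication origins with the Mcm helicase, copies its DNA with the Pcna clamp on the polymerase, and makes deoxynucleotides with ribonucleotide reductase and thymidylate synthase. In G2 it builds up Cdk1 with its B cyclins, and in mitosis Aurora kinases, kinesins, centromere proteins, and the anaphase-promoting complex take the chromosomes apart into both daughters. The transcripts of these genes rise and fall with the phase in which their product works, and in tumors they mark dividing cancer cells as well as T cells that have met their antigen and macrophages that renew in the tissue.

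The promoters of 9 members that the comparisons below return to are shown, the anchors Mcm5, Pcna, Top2a, and Mki67 among them, because genes of G2/M and of S phase are known to carry different promoter elements. RefSeq (GRCm38.p6) had a promoter for 42 of the 48 members, with Mcm4, Aurkb, Ccna2, Ccne2, Tpx2, and Gins2 missing. The last 120 bases before the start are printed 5′ to 3′ on the strand of the gene, with capitals at matches to any of TTTGAA (the cell cycle homology region), CCAAT (bound by NF-Y), TTTCCCGC, and TTTGGCGC (E2F) on either strand. Mcm5 lies at chr8:75109389-75109508 (+ strand), Pcna at chr2:132253181-132253300 (- strand), Rrm2 at chr12:24708134-24708253 (+ strand), Top2a at chr11:99024190-99024309 (- strand), Mki67 at chr7:135716380-135716499 (- strand), Cdk1 at chr10:69352913-69353032 (- strand), Ccnb1 at chr13:100786487-100786606 (- strand), Birc5 at chr11:117849117-117849236 (+ strand), and Cenpa at chr5:30666766-30666885 (+ strand).
Mcm5: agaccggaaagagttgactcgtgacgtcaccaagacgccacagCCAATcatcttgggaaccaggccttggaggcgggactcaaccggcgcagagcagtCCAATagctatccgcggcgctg
Pcna: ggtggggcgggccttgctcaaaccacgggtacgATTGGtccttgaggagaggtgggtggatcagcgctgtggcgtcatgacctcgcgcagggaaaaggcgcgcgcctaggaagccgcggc
Rrm2: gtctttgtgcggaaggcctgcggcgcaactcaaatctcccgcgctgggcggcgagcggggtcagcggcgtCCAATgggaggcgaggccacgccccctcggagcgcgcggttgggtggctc
Top2a: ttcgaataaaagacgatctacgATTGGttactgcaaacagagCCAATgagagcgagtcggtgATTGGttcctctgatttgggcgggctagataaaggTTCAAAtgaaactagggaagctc
Mki67: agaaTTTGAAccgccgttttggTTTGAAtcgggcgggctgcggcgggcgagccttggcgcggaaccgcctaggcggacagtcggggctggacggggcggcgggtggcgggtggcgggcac
Cdk1: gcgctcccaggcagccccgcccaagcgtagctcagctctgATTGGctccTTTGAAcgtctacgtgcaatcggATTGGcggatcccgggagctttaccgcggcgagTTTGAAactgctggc
Ccnb1: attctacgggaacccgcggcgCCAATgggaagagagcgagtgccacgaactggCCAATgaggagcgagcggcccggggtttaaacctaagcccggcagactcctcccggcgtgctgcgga
Birc5: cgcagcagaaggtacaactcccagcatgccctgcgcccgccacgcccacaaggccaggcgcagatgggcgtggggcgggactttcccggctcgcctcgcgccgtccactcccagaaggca
Cenpa: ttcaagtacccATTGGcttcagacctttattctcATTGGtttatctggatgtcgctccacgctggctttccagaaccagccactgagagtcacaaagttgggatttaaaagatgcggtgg
Over the 250 bases before the start, TTTGAA was found in 11 of 25 G2/M members with a promoter and in 3 of 17 S phase members, against 16.0% of all 32851 promoters. CCAAT was found in 21 of 25 and 13 of 17, against 33.8% of all. TTTCCCGC and TTTGGCGC were each found in 3 of 17 S phase members and in 0 of 25 G2/M members, against 0.895% and 0.417% of all. In the printed windows Mki67 and Cdk1 each held 2 copies of TTTGAA, Top2a held 1, Mcm5, Pcna, Rrm2, Ccnb1, and Cenpa held CCAAT alone, and Birc5 held no match. A match describes these letters and not a bound site.

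The libraries held 144994 barcodes and 77132398 to 176233225 unique molecular identifiers (UMIs, each 1 captured transcript). Of these barcodes 57357 (39.6%) carried no hemoglobin transcript, had less than 10% of their UMIs from mitochondria, and held 200 to 3000 genes in 1000 to 10000 UMIs, and are called within limits. Without the upper limits on genes and UMIs 120419 (83.1%) were kept, and 62244 of them (51.7%) had over 10000 UMIs. Gates for CD8, CD4, regulatory T (Treg), NK, macrophage, tumor, and neutrophil cells were drawn on lineage transcripts other than the members and held 32607 cells within limits and 85018 without an upper limit. The markers that define a gate are therefore present in it by construction. Of 132035 barcode sequences 12150 (9.20%) occurred in at least 2 libraries. No doublet caller was run. The gates set a minimum lineage purity, given with the processing below, and so kept barcodes with a smaller part of markers from another lineage.

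Within limits, members of both phases were detected in every gate, and the summed levels were highest in the T cell gates. The share of cells with several G2/M members, after each cell was thinned at random to 1000 UMIs, was highest in tumor cells. It was not highest there among cells of like depth before thinning. The G2/M sum was taken over 26 members, without Hmgb2 and Tubb4b, a chromatin protein and a tubulin that nondividing cells also transcribe. Over all cells of a gate it was 9.65 UMIs per 10000 in Treg, 8.80 in CD8, 8.00 in CD4, 7.38 in tumor, 5.30 in macrophage, and 4.24 in NK cells. Neutrophils, which are postmitotic and served as the background, had 2.91 at a median depth of 1511 UMIs, against 4056.5 in CD8 and 6357 in tumor cells. The 8 pools ranged from 6.73 to 9.75 in CD8, 5.48 to 9.02 in tumor, and 4.32 to 6.32 in macrophage cells, so that neighbors in this order overlapped, while the neutrophil pools, at 2.09 to 4.09, lay below every CD8, tumor, and macrophage pool. The small gates spread widely, with pools from 3.74 to 11.6 in CD4, 5.11 to 14.1 in Treg, and 1.10 to 12.9 in NK cells. The S phase sum was highest in the T cell gates as well, at 7.63 in CD8, 8.09 in CD4, 8.02 in Treg, 5.33 in NK, 4.20 in macrophage, 5.17 in tumor, and 2.46 in neutrophil cells. The share of cells with at least 3 of the 26 G2/M members after thinning each cell to 1000 UMIs gave another order, with 11.0% in tumor, 6.98% in macrophage, 5.49% in CD8, 5.33% in CD4, 5.17% in Treg, 1.30% in NK, and 0.646% in neutrophil cells. Before thinning the shares in the same order of gates were 22.8%, 15.8%, 14.4%, 11.7%, 12.3%, 4.56%, and 1.80%.

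**Figure D1:**
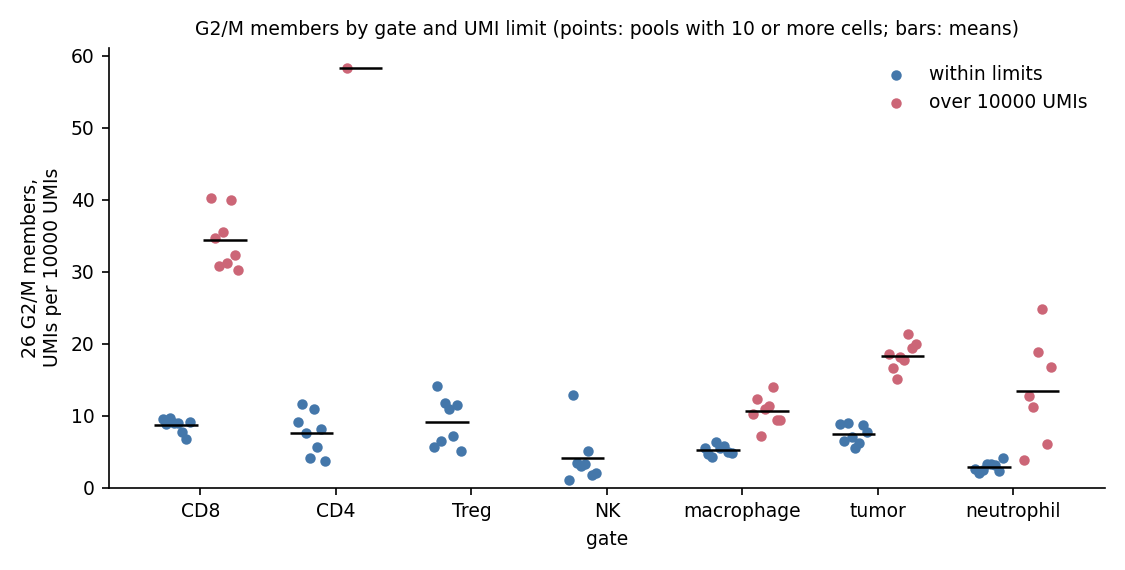
Summed UMIs of 26 G2/M members per 10000 UMIs by gate (horizontal axis), for cells within limits and over 10000 UMIs, with 1 point per pool of at least 10 cells and bars at the means. CD8 pools sit between 6.73 and 9.75 within limits and between 30.3 and 40.2 over the limit, the widest separation of the gates with 8 pools in both.

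Summed over each gate, cells removed by the upper limit of 10000 UMIs had higher levels of these transcripts than cells within limits. Among the CD8, macrophage, and tumor gates the levels over the limit were highest in CD8. CD8 cells over the limit (1172 cells) had 34.1 G2/M UMIs per 10000 and 20.3 S phase UMIs per 10000. The corresponding sums in macrophages over the limit (5539 cells) were 10.9 and 7.43, and in tumor cells (45113 cells) 18.6 and 10.1. Pools over the limit spanned 30.3 to 40.2 in CD8, 15.2 to 21.4 in tumor, and 7.18 to 14.0 in macrophage cells, and none of the 3 ranges overlapped another. The few CD4 (28), Treg (46), and NK (12) cells over the limit had 47.8, 36.6, and 21.6, and neutrophils (134 cells) had 12.6.

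In CD8 cells all 48 members were higher over the limit than within it by the quasi-likelihood test of edgeR on UMIs summed by pool, where 15.6% of all genes were called higher (adjusted P below 0.05 and a log2 change above 0.5, as in every count below). The median log2 difference was 1.96 over the G2/M members and 1.46 over the S phase members. Ccnb1, the cyclin that activates Cdk1 at entry to mitosis, was at 5.96, 9.69, and 10.9 CPM (UMIs per 1000000 UMIs of the gate; lowest, median, and highest pool) within limits and at 44.0, 52.6, and 61.2 CPM over it (log2 difference 2.41, SE 0.09, edgeR adjusted P 1.57e-10). The lowest pool over the limit was above the highest within it, as it was for every G2/M member and for 18 of 20 S phase members. The share of all genes with separate pools was not counted, so these numbers are not read as a result about the members. Birc5 (survivin), which guides the Aurora B complex on chromosomes, rose by 2.31 on the log2 scale (SE 0.07), and Ube2c, the ubiquitin-conjugating enzyme of the anaphase-promoting complex, by 2.29 (SE 0.08). Hmgb2 rose by 1.39 (SE 0.04), Tyms, thymidylate synthase, by 1.82 (SE 0.06), and Rrm1, the large subunit of ribonucleotide reductase, by 1.79 (SE 0.07). Top2a, the topoisomerase that untangles replicated DNA, was at 70.1, 120.1, and 132 CPM within limits and 360.2, 386, and 497 CPM over it (1.79, SE 0.08). Mki67, which coats mitotic chromosomes, was at 49.6, 90.7, and 112 against 215, 251, and 306 CPM (1.57, SE 0.11), Mcm5 rose by 1.47 (SE 0.06), and Pcna by 1.03 (SE 0.07), all with separate groups. Of 53 other cell cycle genes 38 were also higher and 3 were lower, and the lower ones were the cyclins Ccnd2 (-1.18) and Ccnd3 (-0.55) and the inhibitor Cdkn1b (-0.93), all of G1. These 3 were named after their values were seen. Dut, which keeps dUTP out of DNA, the histone variant H2afz, thymidine kinase Tk1, and the flap nuclease Fen1 rose 3.05-fold, 2.08-fold, 4.79-fold, and 2.83-fold. In summed UMIs, more cycling cells and more transcript in each cycling cell cannot be told apart. T cell markers were at 35.3 UMIs per 10000 over the limit and 43.5 within, macrophage markers at 0.353 and 0.927, and tumor markers at 0.447 and 0.391. The part of doublets was not tested.

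Tumor and macrophage cells over the limit were also higher in nearly all members, by smaller steps. In tumor cells 47 of 48 were called, all but Tubb4b, with a median log2 difference of 1.22 and a background of 5.21%. The tumor differences were 1.69 (SE 0.10) for Top2a, 1.43 (SE 0.08) for Mcm5, 1.38 (SE 0.11) for Mki67, and 0.53 (SE 0.05) for Pcna, each with separate pools. Aurkb, the Aurora kinase of the chromosomal passenger complex, was at 6.29, 9.19, and 13.2 CPM within limits and 29.8, 40.2, and 45.0 CPM over it in tumor cells (2.08, SE 0.12), the lowest pool over the limit above the highest within it. Cenpf, a kinetochore protein, rose by 1.66 (SE 0.09), Ccna2, the cyclin of S phase and G2, by 1.56 (SE 0.10), the helicase subunits Mcm3 and Mcm2 by 1.32 (SE 0.07) and 1.00 (SE 0.06), and Gins2, which holds the helicase to the polymerase, by 1.03 (SE 0.06). In macrophages 45 of 48 were called, all but Pcna, Hmgb2, and Cenpa, with a median of 0.91 and a background of 12.1%. Top2a was at 34.3, 51.7, and 63.4 CPM within limits and 74.5, 110.1, and 146 CPM over it in macrophages (1.06, SE 0.06), with no overlap. The macrophage differences were 0.98 (SE 0.04) for Mki67, 0.89 (SE 0.06) for Mcm5, and 0.30 (SE 0.04) for Pcna, the last below the 0.5 asked of a call. Uhrf1, which carries DNA methylation through replication, rose by 1.12 (SE 0.07), Tpx2, which activates Aurora A, by 1.06 (SE 0.06), and Hells, a chromatin remodeler of replicating cells, by 0.91 (SE 0.05). Mcm6, Cenpe, a kinetochore motor, and Mcm2 rose by 0.79, 1.03, and 0.73 in macrophages. Of 53 other pathway genes 33 were higher and 0 lower in tumor cells, and 29 were higher and 1 lower in macrophages, the lower one being Cdkn1a (-0.58), the p21 inhibitor, named after its value was seen. Tumor markers in the macrophage gate were at 2.23 UMIs per 10000 over the limit and 0.576 within, and their part in these differences was not tested.

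**Figure D2:**
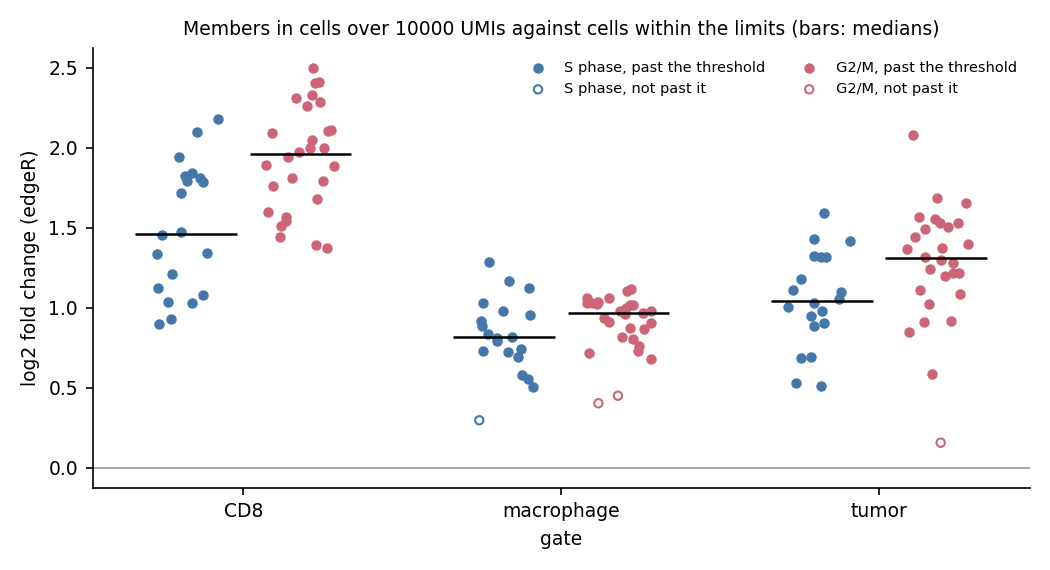
Log2 difference of each member, over 10000 UMIs against within limits (vertical axis, from edgeR), in the CD8, macrophage, and tumor gates, with filled points past the threshold and open points not. All 48 points are filled in CD8, 45 in macrophage, and 47 in tumor cells, and none lies below 0.

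After thinning to equal UMIs, the share of all cells with several G2/M members was also higher over the limit in the CD8, macrophage, and tumor gates. By pool only CD8 was separate. Each cell was thinned at random to 1000 UMIs, and it was counted as cycling if at least 3 of the 26 G2/M members remained. Of CD8 cells within limits 5.49% were cycling (95% exact binomial interval 5.02 to 5.98, which covers counting error only), and of those over the limit 39.8% (36.9 to 42.6). Before thinning these shares were 14.4% and 80.3%. Macrophages went from 6.98% to 12.1% after thinning (15.8% and 42.8% before), and tumor cells from 11.0% to 15.9% (22.8% and 47.0% before). Thinned shares of CD8 pools were 4.05% to 6.67% within limits and 33.6% to 49.0% over the limit. Macrophage pools, at 4.72% to 8.93% and 7.49% to 15.9%, overlapped. So did tumor pools, at 9.44% to 15.4% and 14.6% to 18.5%. The neutrophil background was 0.646% within limits at a median of 1511 UMIs. Over the limit the neutrophil gate had 11.2% at 17204.5 UMIs, where its tumor markers were at 9.22 UMIs per 10000 against 1.28 within. Its neutrophil markers were at 91.3 there against 465 within, so it is not a clean background over the limit. The macrophage share over the limit lay near the share of that gate. The tumor share of 15.9% lay inside that gate's 95% exact binomial interval of 6.40 to 17.8, and the CD8 share lay above the interval. The cut divides a range and not a class, since of all 10070 CD8 cells 958 reached it, 195 of them with exactly 3 members, and 443 were 1 member below.

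Shares by depth differed in shape between gates. In CD8 cells the thinned share was 3.04% at 1000 to 2500 UMIs, 2.59% to 5000, 11.0% to 10000, 36.6% to 20000, and 56.0% above 20000. Tumor cells fell first and then rose, with 25.6%, 14.3%, 8.19%, 5.13%, and 23.0% over the same steps, so that their shallowest and deepest cells had the highest shares. Macrophages over all cells had 10.3%, 6.28%, 4.85%, 9.85%, and 24.1%. Their pools ran from 5.95% to 12.9%, 4.02% to 9.78%, 3.98% to 5.92%, 6.06% to 13.3%, and 17.2% to 30.8%. The shallowest step overlapped the next step and the step to 20000 UMIs. In the deepest macrophage step (878 cells) tumor markers were at 5.89 UMIs per 10000, against 0.786 in the step before. Macrophage markers were at 104 against 191, and the part of tumor transcripts in this share was not tested. CD4 cells had 2.80%, 2.62%, 17.3%, and 69.6% up to 20000 UMIs, and Treg 0.833%, 2.35%, 20.5%, and 48.6%, this last step resting on 23 CD4 and 37 Treg cells. Above 20000 UMIs the shares were 40.0% of 5 CD4 cells and 33.3% of 9 Treg cells. Neutrophils had 0.461%, 2.22%, 2.08%, 3.57%, and 24.0%, the last on 50 cells. In this deepest step tumor markers were at 9.50 UMIs per 10000 and neutrophil markers at 91.0, against 1.12 and 451 in the first step. It is therefore not read as a background of postmitotic cells, and the part of tumor transcripts was not tested.

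**Figure D3:**
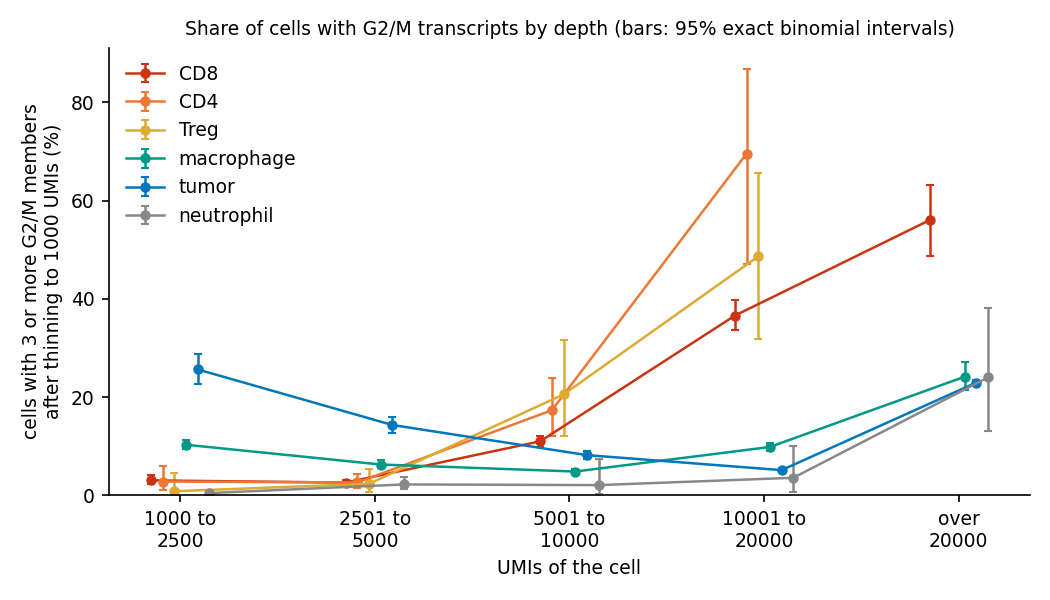
Share of cells with at least 3 G2/M members after thinning to 1000 UMIs (vertical axis, %) by the UMIs of the cell before thinning (horizontal axis). The CD8, CD4, Treg, macrophage, tumor, and neutrophil gates are drawn with 95% exact binomial intervals. NK cells and steps with few cells are left out. Counted over all cells and not by pool, CD8 cells climb from 3.04% to 56.0%. Tumor cells drop from 25.6% to 5.13% and return to 23.0% in the deepest step.

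Of the CD8 cells that reached the cut 466 of 958 (48.6%) lay over the limit, against 7.75% of CD8 cells below the cut. In single pools this share ran from 27.7% to 66.1%. In Treg it was 21 of 42 cells (50.0%) and in CD4 18 of 68 (26.5%). In macrophages 40.1% of cycling cells and 26.9% of the others lay over the limit, and in tumor cells 88.5% and 83.7%. S phase members, which the cut does not use, were at 22.6 UMIs per 10000 in CD8 cells at or over the cut and 9.15 below it, with 17.3 and 7.74 in tumor cells and 13.1 and 5.20 in macrophages. Members of 1 phase were also detected together after thinning, as Top2a was found in 39.0% of 441 CD8 cells within limits that had Mki67 and in 5.23% of 8451 without it.

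PancVAX was tested as 4 pools with it against 4 without, and within limits 9 of 48 members changed in CD8 cells. They were 8 higher, where the background was 7.4% of genes, and 1 lower, where the background was 4.84%. Of the S phase members 4 of 20 rose (Rrm2, Clspn, E2f8, and Cdc45), and of the G2/M members 4 of 28 rose (Kif23, Tubb4b, Nusap1, and Ccna2) and Cenpa fell. The median log2 difference over the 48 members was 0.29, with 44 above 0, and over all genes it was 0.0064.

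Rrm2, the small subunit of ribonucleotide reductase, was at 49.4 CPM with PancVAX alone, 51.5 with both antibodies added, 49.0 with Anti-PD-1 added, and 39.9 with Anti-CTLA-4 added. Without the vaccine it was at 28.7 CPM in Isotype Control, 17.7 with Anti-PD-1, 17.7 with Anti-CTLA-4, and 26.2 with both. All pools with PancVAX were above all without (log2 difference 1.01, SE 0.15, edgeR adjusted P 0.000313). Kif23, a kinesin of the midzone where the dividing cell is cut, was at 26.5, 22.4, 25.5, and 21.2 CPM in the vaccinated pools in the same order, and at 14.2, 8.59, 7.99, and 13.8 CPM in the others. Its groups were apart as well (1.03, SE 0.17, adjusted P 0.000974). Cenpa, the histone H3 variant of the centromere, went the other way, at 119.8, 115, 117, and 113 CPM with PancVAX and 184, 177, 159, and 154 CPM without. All vaccinated pools were below all others (-0.60, SE 0.06, edgeR adjusted P 1.86e-05). Tubb4b, a beta-tubulin, had 158, 194, 262, and 187 against 129, 91.4, 102, and 112 CPM, again without overlap (0.81, SE 0.13, adjusted P 0.000748). Clspn (claspin), which signals stalled forks, rose by 0.69 (SE 0.16) and Nusap1, which bundles spindle microtubules, by 0.59 (SE 0.13).

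Mki67 had 84.5 to 112 CPM with PancVAX and 49.6 to 96.6 CPM without, Top2a 119.7 to 132 and 70.1 to 121 CPM, and both pairs of groups overlapped (0.28 and 0.27, edgeR adjusted P 0.274 and 0.121). Mcm5 at 52.8 to 63.4 against 38.6 to 52.0 CPM had separate groups and an adjusted P of 0.0389, but its difference of 0.32 lay under the 0.5 asked of a call, and Pcna was at 0.25 (0.0568). Of 53 other pathway genes 10 rose and 0 fell. Those with the smallest P were Ccnd2, a G1 cyclin (0.78, SE 0.06), the inhibitors Cdkn1a (p21; 1.60, SE 0.13) and Cdkn2d (p19; 1.12, SE 0.10), and Cdt1, which loads the Mcm helicase (0.77, SE 0.09).

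Without the upper UMI limit 0 of 48 members were called with PancVAX in CD8 cells by edgeR, where 8.43% of genes were called, and 6 had an unadjusted P under 0.05. DESeq2 was not run on these cells. The median over the members was -0.06 and 16 lay above 0. Of the 9 members called within limits, Rrm2 was then at 0.06, Clspn at 0.12, and E2f8 at 0.25, while Nusap1, Ccna2, and Cdc45 turned to -0.03, -0.02, and -0.10. Tubb4b at 0.31, Kif23 at 0.40, and Cenpa at -0.37 had an edgeR adjusted P of 0.00781, 0.0228, and 0.00588 and lay below the 0.5 asked of a call. Depth moved with PancVAX in this gate, as median UMIs of CD8 cells within limits were 3482.5 to 3677 in the vaccinated pools and 4393 to 5197 in the others. The share of CD8 cells over the limit was 8.53% ± 2.11 (SD, n = 4) with PancVAX and 16.6% ± 3.05 without (n = 4). The pools did not overlap in this share, and the exact two-sided permutation P was 0.0286, the smallest that 4 against 4 allows, or 0.171 adjusted over 6 gates. The part of this difference in the calls was not tested.

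Both summed lists were higher with PancVAX within limits when all members were counted. S phase members within limits were at 7.92 to 8.87 UMIs per 10000 in CD8 cells with PancVAX and at 5.40 to 7.21 without, with no overlap. All 28 G2/M members together were at 17.9 to 20.1 UMIs per 10000 with PancVAX and 13.5 to 17.1 without, again with no overlap. Without Hmgb2 and Tubb4b, the other 26 were at 9.30 ± 0.40 and 8.16 ± 1.14 (SD, n = 4 each), and overlapped. The share of CD8 cells with at least 3 of these 26 members did not follow the sums. After thinning it was 5.69% ± 0.88 with PancVAX and 5.20% ± 1.08 without (SD, n = 4 each), and the pools overlapped. Before thinning it was lower with PancVAX, at 11.3% to 14.4% against 14.5% to 22.0%, with no overlap, while the pools' median UMIs per cell were 3482.5 to 3677 with PancVAX and 4393 to 5197 without. That share kept its separation with the upper limit lifted, at 16.0% to 22.6% and 24.7% to 31.1%. The thinned share was then 8.78% ± 1.24 with PancVAX and 10.8% ± 0.79 without (SD, n = 4 each), and the pools overlapped. With the upper limit lifted no separation was left in the sums, as the S phase sum was 11.9 ± 1.13 with PancVAX and 11.5 ± 0.95 without, the sum of 28 G2/M members 30.0 ± 3.31 and 30.4 ± 1.25, and that of 26 was 16.4 ± 2.51 and 17.5 ± 0.56. In either preparation alone a similar number of members was called within limits, 9 in whole tumor and 8 in Percoll libraries, but Nusap1 and Clspn were not called in whole tumor alone (0.51 and 0.56) or without the Anti-PD-1 pool (0.43 and 0.49). Leaving out 1 pool gave 5 calls without Anti-PD-1 and 14 without Anti-PD-1 + Anti-CTLA-4. The shares of all genes called in these fits are not given here, so these counts are not read as results about the members.

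**Figure D4:**
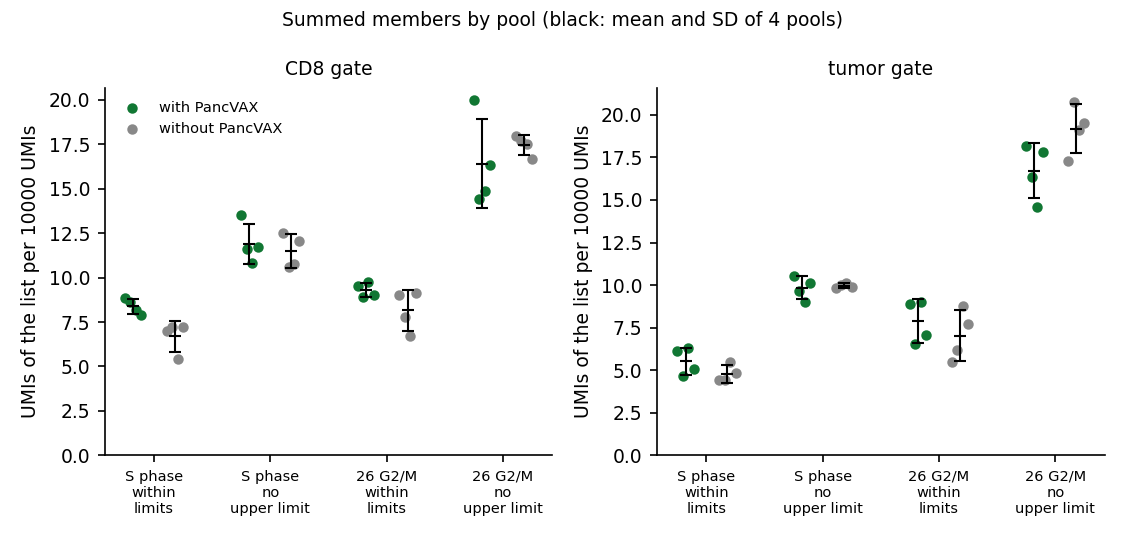
Summed S phase members and 26 G2/M members, without Hmgb2 and Tubb4b (vertical axis, UMIs per 10000 UMIs), in pools with and without PancVAX, within limits and without the upper limit, for the CD8 and tumor gates, each point a pool, and the mean and SD of 4 pools in black. In the CD8 gate the S phase points within limits run from 7.92 to 8.87 with PancVAX and from 5.40 to 7.21 without, while the points of the 26 G2/M members overlap, as do both sums without the upper limit.

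In the other gates no member was called with PancVAX within limits by edgeR, and these comparisons rest on few tested members in the small gates. In CD4 cells 0 of 21 tested members were called against a background of 2.5%, with 3 at an unadjusted P under 0.05 (DESeq2 called 0, with 2 under 0.05). In Treg 0 of 12 were called against 0.216%, with 1 under 0.05 (DESeq2 0 and 0), and in NK cells 0 of 4 against 0.056%, with 2 under 0.05 (DESeq2 0 and 1). In macrophages 0 of 48 were called against 0.34%, with 2 under 0.05 (DESeq2 0 and 1), and Mki67 was at 30.4 to 49.5 CPM with PancVAX and 35.1 to 46.0 CPM without (-0.06, SE 0.07, adjusted P 0.75). The anchor genes Mki67, Top2a, Mcm5, and Pcna, as far as they passed the filter on low counts, ranged from -0.14 to 0.28 in CD4, -0.19 to 0.40 in Treg, and -0.17 to -0.04 in macrophage cells. In NK cells without the upper limit Tubb4b (1.30, edgeR adjusted P 0.00139) and Hmgb2 (0.81, edgeR adjusted P 0.0287) were called, where 0.556% of genes were, and nondividing cells also transcribe both. They were named after their values were seen. The sums separated as well in NK cells at that setting, with the 26 G2/M members, which leave out both genes, at 5.57 to 14.4 UMIs per 10000 with PancVAX and 1.60 to 5.10 without, and the S phase members at 8.34 to 13.1 and 2.85 to 8.17. The NK gate then held 319 cells in all, and within limits both sums overlapped. Only 12 NK cells lay over the limit, with 1 to 2 per vaccinated pool and 0 to 3 per other pool, and their part in this separation was not tested. Without the upper limit the thinned share of NK cells with at least 3 of the 26 members overlapped. It was 0% to 6.67% with PancVAX and 0% to 1.92% without. In Treg without the upper limit 0 of 33 members were called by edgeR (background 0.135%; DESeq2 was not run), with 11 at an unadjusted P under 0.05, 31 below 0, and medians of -0.32 over the S phase and -0.46 over the G2/M members. How many of all genes had an unadjusted P under 0.05 or lay below 0 was not counted, here or in the other comparisons. Such numbers are therefore not read as results about the members.

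Tumor cells gave no call in either population. Within limits 0 of 48 were called by edgeR (background 0%, 15 members at an unadjusted P under 0.05, DESeq2 0 with 9 under 0.05), with a median of 0.17 and 40 members above 0. Top2a was at 42.3, 68.4, and 71.8 CPM (lowest, median, highest) with PancVAX and 40.8, 44.4, and 51.4 CPM without, with overlap (0.39, SE 0.15, adjusted P 0.299), and Mki67 at 0.32 (0.378), Mcm5 at 0.07 (0.866), and Pcna at -0.06 (0.83) overlapped too. With that limit lifted 0 were called (background 0%; DESeq2 was not run), but 31 had an unadjusted P under 0.05, the median was -0.17, and 5 lay above 0. Within limits the whole-tumor libraries alone had a median of -0.10 (12 of 46 above 0) and the Percoll libraries alone 0.39 (41 of 44 above 0). The difference between the preparations was tested as an interaction, and 0 of 46 members had an adjusted P below 0.05 by edgeR, with 20 below it unadjusted. As the shares of all genes under an unadjusted 0.05 or on 1 side of 0 were not counted, these numbers are not read as results about the members.

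The antibodies gave no call among the members in the gates tested. In CD8 cells 0 of 48 were called by edgeR for Anti-PD-1 (4 pools with it against 4 without, background 0%, 0 at an unadjusted P under 0.05, DESeq2 0 with 0) and 0 of 48 for Anti-CTLA-4 (background 0%, 2 under 0.05, DESeq2 0 with 1). The anchors lay between -0.03 and 0.05 for Anti-PD-1 and between -0.07 and 0.18 for Anti-CTLA-4 in CD8 cells. In Treg 0 of 12 were called for Anti-PD-1 (background 0.0359%, 4 under 0.05, DESeq2 0 with 2) and 0 of 12 for Anti-CTLA-4 (background 0.144%, 3 under 0.05, DESeq2 0 with 3). Mki67 in Treg was at 96.7 to 163 CPM with Anti-PD-1 and 17.0 to 108 CPM without, with overlap (0.65, SE 0.30, adjusted P 0.99). These contrasts share all 8 pools with the PancVAX contrast.

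Percoll libraries had lower levels of G2/M members than whole-tumor libraries of the same treatments, and the 2 preparations were also separate sequencing batches, so that the gradient and the batch cannot be told apart. Within limits 11 of 45 tested members were lower in CD8 cells (background 2.82%) and 0 higher, with 10 of 27 G2/M and 1 of 18 S phase members among them. In macrophages 10 of 47 were lower (background 1.65%) and in tumor cells 4 of 45 (background 0.893%), again with 0 higher. The median log2 difference in CD8 cells was -0.43 over the G2/M and -0.12 over the S phase members.

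Cenpf was at 29.4, 46.6, and 69.4 CPM in whole-tumor and 13.4, 20.4, and 32.8 CPM in Percoll libraries of CD8 cells (lowest, median, highest of 8; -1.08, SE 0.13, edgeR adjusted P 1.16e-06). The groups overlapped between 29.4 and 32.8 CPM. Hells was at 41.5, 50.0, and 62.9 against 24.7, 35.1, and 40.4 CPM in CD8 cells (-0.62, SE 0.09, edgeR adjusted P 1.23e-05), and was the S phase member called and the only one called whose groups did not overlap. Cdk1, the kinase that drives mitosis, fell by 0.64 (SE 0.10), Nusap1 by 0.70 (SE 0.13), Kif20b, a kinesin of cytokinesis, by 0.75 (SE 0.15), Ube2c by 0.54 (SE 0.12), and Mki67 by 0.50 (SE 0.11) in CD8 cells. Top2a at -0.47 (SE 0.07, adjusted P 3.08e-05) missed the 0.5, and Mcm5 and Pcna were at 0.02 and 0.10. In macrophages Hells fell by 0.68 (SE 0.11), Cenpf by 0.71 (SE 0.15), Aspm, a spindle pole protein, by 1.12 (SE 0.23), Kif20b by 0.59 (SE 0.16), Tpx2 and Cenpe by 0.54 each (SE 0.14), and Mki67 by 0.52 (SE 0.12). Mki67 had 30.1, 45.4, and 59.6 CPM in whole-tumor and 20.3, 32.5, and 39.4 CPM in Percoll macrophages, with overlap. Macrophage Pcna was at 0.05 (adjusted P 0.612) and turned to -0.017 with plain library sizes. In tumor cells Ube2c fell by 0.71 (SE 0.18), Ccna2 by 0.60 (SE 0.16), Cenpf by 0.53 (SE 0.17), and Birc5 by 0.51 (SE 0.15), and their groups overlapped.

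In the small gates Tubb4b was higher in Percoll CD4 cells (0.64, SE 0.15, edgeR adjusted P 0.0156), the 1 call among 9 tested members (background 3.59%), and Top2a lower in Percoll Treg (-1.08, SE 0.29, edgeR adjusted P 0.0472), the 1 call among 6 (background 2.08%). Both calls were lost, with 0 members called in either gate, with DESeq2, without the treatment block, and without the upper limit. In NK cells 0 of 1 tested members was called by edgeR (background 5.5%; 0 at an unadjusted P under 0.05; DESeq2 called 0). Neutrophils moved as well, with the G2/M sum at 3.96 UMIs per 10000 in whole-tumor and 2.12 in Percoll libraries, lower in Percoll in 7 of 8 treatments. CD8 cells had 9.99 ± 1.84 and 7.64 ± 1.17 (SD, n = 8 each), also lower in 7 of 8, and macrophage and tumor cells were lower in 6 of 8. The mitochondrial share of CD8 UMIs was 2.99% in whole-tumor and 2.10% in Percoll libraries, and its part was not tested. Without the upper UMI limit the calls lower in Percoll were 4 of 48 in CD8 (background 2.67%), 1 of 48 in macrophage (1.6%), and 2 of 48 in tumor cells (2.49%). The count in CD8 cells ran from 6 (without PancVAX + Anti-PD-1) to 18 (without Anti-PD-1 + Anti-CTLA-4) when 1 treatment was left out. In macrophages it fell to 4 without the pool of all 3 agents, 5 without Anti-PD-1, and 6 without Isotype Control. In tumor cells it ran from 1 (without PancVAX + Anti-CTLA-4 or without Anti-PD-1 + Anti-CTLA-4) over 2 (without Anti-CTLA-4, Anti-PD-1, or Isotype Control) to 19 (without PancVAX + Anti-PD-1). The call of Tubb4b in CD4 cells was lost without the pool of all 3 agents, and that of Top2a in Treg without any 1 treatment other than PancVAX or Anti-PD-1. Shares of all genes called with 1 treatment left out are not given here, so these counts are not read as results about the members.

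**Figure D5:**
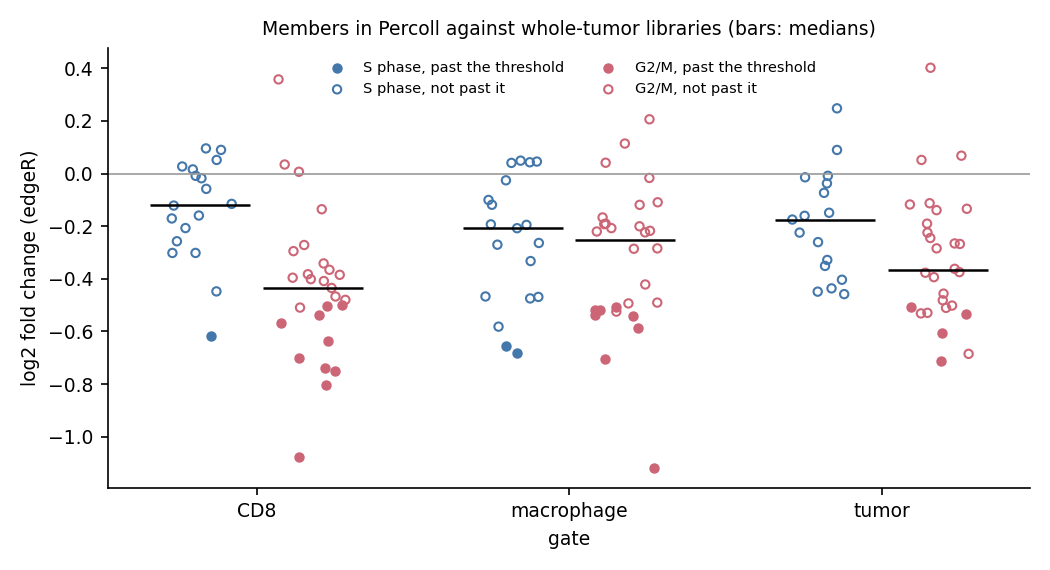
Log2 difference of each tested member, Percoll against whole tumor (vertical axis, from edgeR with treatment as a block), by gate, with filled points past the threshold and open points not. Most points lie below 0 in the CD8, macrophage, and tumor gates, where 11, 10, and 4 are filled.

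Between gates of the same pools, the number of members called for CD8 against CD4 and for Treg against CD4 was near the share of all genes called. The small gates held few members above the filter on low counts, which limits these comparisons and that with NK cells. Against CD4, 3 of 46 tested members were higher in CD8 cells within limits, with a background of 4.56%, and 0 were lower, although only 21 members passed the filter on low counts in CD4 cells on their own. Mki67 (-0.17), Top2a (-0.12), Pcna (-0.08), and Mcm5 (-0.05) were not called (edgeR adjusted P 0.506, 0.669, 0.755, and 0.855). Cenpa was at 113, 137, and 184 CPM in CD8 and 49.2, 87.9, and 124 CPM in CD4 cells (0.68, SE 0.12, edgeR adjusted P 0.0001) and Ube2c was higher by 0.67 (SE 0.19), and the pools overlapped for both. Cdk1, the third call, was tested only because of its CD8 counts. The count fell to 1 without PancVAX + Anti-PD-1 or without PancVAX + Anti-CTLA-4. With all depths kept 12 of 48 were higher, against 5.48% of genes, but only 30 passed the filter in CD4 cells on their own, so this number is not read as a result about the members. Treg against CD4 gave 2 of 15 members higher and 1 lower, a share close to the background of 18.7% in both directions together. Cenpa (0.78, SE 0.16) and Mcm6 (0.58, SE 0.15) were higher in Treg, and Mcm7 lower (-0.83, SE 0.30, edgeR adjusted P 0.0419), and Mcm7, which did not pass the filter in Treg on their own, was at 0.20 without the upper limit. There 4 of 31 were higher (Mcm6, Cenpa, Ccna2, and Cdca8 of the Aurora B complex), against 7.51%. Mki67 and Top2a in Treg were both at -0.07 and turned to 0.058 and 0.055 with plain library sizes, which moved the median of all genes by 0.12. Pcna was at -0.13 (edgeR adjusted P 0.679). Mcm5 was at 14.9, 24.5, and 85.1 CPM in Treg and 29.9, 53.1, and 77.8 CPM in CD4 cells (-0.81, SE 0.30, edgeR adjusted P 0.0502), so the pools overlapped. It did not pass the filter in Treg on their own, was not called, and turned to 0.26 without the upper limit.

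Against NK cells, 18 of 44 members were higher in CD8 cells within limits, with a background of 7.78%, and 0 were lower. In NK cells on their own only 4 members passed the filter on low counts, so most of the 44 were tested because of their CD8 counts, and the number called is not read as a result about the members. The levels of most members in NK cells are therefore given with no test. Mki67 was at 0, 27.6, and 93.4 CPM in NK and 49.6, 90.7, and 112 CPM in CD8 cells, with 2 NK pools inside the CD8 range. Top2a was at 0, 43.7, and 87.1 CPM in NK and 70.1, 120.1, and 132 CPM in CD8 cells, and Mcm5 at 0, 29.7, and 38.9 against 38.6, 52.4, and 63.4 CPM, and both overlapped. Ccnb2, a B cyclin, was at 0 CPM in 6 of 8 NK pools and Cdca8 in 5 of 8. Of the members that NK cells held above the filter, Hmgb2 was higher in CD8 cells by 0.55 (SE 0.09, edgeR adjusted P 3.24e-06) and Pcna was at 0.24 (adjusted P 0.383). Without the upper limit 32 of 48 were higher, against 8.33% of genes, with 7 members past the filter in NK cells on their own, and the same limit holds. The NK gate held 307 cells within limits, with pools from 22 to 54.

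Tumor cells and macrophages differed in both directions within limits, and the direction depended on the limit and the scaling. In tumor cells 11 of 48 members were higher (background 31.4%) and 10 lower (33.4%), so that fewer members were called in either direction than the share of all genes. Tubb4b was at 280.2, 357, and 685 CPM in tumor and 55.1, 60.1, and 99.1 CPM in macrophage cells (2.16, SE 0.08), Cdc20, the activator of the anaphase-promoting complex, was higher by 1.42 (SE 0.11), Ckap2, a spindle protein, by 1.14 (SE 0.12), Rrm2 by 0.98 (SE 0.12), and Hells by 0.82 (SE 0.09). Bub1b, a spindle checkpoint kinase, was lower by 1.41 on the log2 scale (-1.41, SE 0.14). Pcna was at 55.4, 62.5, and 72.3 CPM in tumor and 92.1, 96.0, and 101 CPM in macrophage cells, with no overlap (-1.03, SE 0.06, edgeR adjusted P 3.4e-10), and Mki67 was at -0.63 (SE 0.16). Mcm5 at -0.25 and Top2a at -0.31 were not called, and they turned to 0.14 and 0.076 with plain library sizes, which moved the median of all genes by 0.37 and gave 20 members higher and 3 lower, where 44.9% and 24.3% of all genes were. Without the upper limit 27 of 48 were higher, against 33.5% of genes, and 3 lower, against 32.6%, and Mki67 was then at 0.073.

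Against CD8 cells, 5 of 48 members were higher in tumor cells (background 33.5%) and 22 lower (32.4%) within limits. The lower ones took in 13 of 20 S phase and 9 of 28 G2/M members. Mki67 was at 23.5, 34.2, and 44.3 CPM in tumor and 49.6, 90.7, and 112 CPM in CD8 cells, without overlap (-1.59, SE 0.13, edgeR adjusted P 2.98e-08). Mcm5, Pcna, and Top2a were at -1.17, -0.99, and -1.30, and Top2a overlapped slightly. Clspn (-2.07, SE 0.11), the helicase subunit Mcm4 (-1.81, SE 0.10), Ccne1, the cyclin of entry into S phase (-2.31, SE 0.20), Cenpa (-1.26, SE 0.11), and Hmgb2 (-1.16, SE 0.07) were lower in tumor cells too. Tubb4b was higher in tumor cells (1.19, SE 0.10), as were Cdc20, Ckap2, Ccnb1, and Aurka, the Aurora kinase of the spindle poles. With all depths kept 9 were higher and 14 lower, where 37.3% of genes were higher and 30.8% lower. Plain library sizes within limits gave 6 higher and 17 lower, where 39.6% and 26.1% of genes were, and moved the median of all genes by 0.19. The tumor gate within limits held 7891 of 53456 tumor cells, so that most tumor cells lay outside this comparison.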

How the data were processed

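Single-cell 5′ RNA libraries of 8 treatments in 2 preparations were used, and T cell receptor libraries were not. Per the submitters' processing notes the authors used Cell Ranger 4.0.0, Seurat, and mm10. The deposited values are raw UMI counts per gene and barcode. Gates needed 3 lineage UMIs (2 for NK) and a lineage purity of 0.7, and no doublet caller was run. UMIs were summed by pool and gate (at least 10 cells) and fitted in edgeR 4.0.16 (R 4.3.3; quasi-likelihood, TMM, low counts filtered) with Benjamini-Hochberg adjustment over all genes. PancVAX and both antibodies entered 1 fit, Percoll was blocked by treatment, and gates or UMI limits were blocked by pool. DESeq2 1.42.0, other filters, and 1 pool left out (for Percoll, both libraries of 1 treatment) were alternatives. Scripts were tested on simulated data. Counting and thinning used Python 3.11.15 with random seed 1. The mean ± SD is over pools, or over libraries where preparations are compared. The rule for named genes allowed Mki67, Top2a, Mcm5, Pcna, up to 6 called members, and up to 4 of 54 other pathway genes with the smallest P in each comparison, and not all of these are printed. Members and lists were chosen with earlier results of these data known. Whether both preparations came from the same mice is not stated in the sources used here, and pools give no replicate of a treatment.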

Additional observations from a re-analysis of the deposited data

Results flagged for a closer look

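Values of 4 pools were checked for 1 pool far from the other 3, and 9 of 108 such groups stood out, where chance gives about 1 in 20. In CD8 cells without PancVAX the S phase sum was 5.40 UMIs per 10000 in the Anti-PD-1 pool and 7.01 to 7.21 in the others. In CD4 cells without PancVAX Mki67 was at 208 CPM with Anti-PD-1 + Anti-CTLA-4 and at 67.4 to 83.6 CPM in the others. The pool of all 3 agents stood apart in Treg, with Mcm5 at 58.4 CPM against 20.1 to 20.8, and in NK cells, with Mki67 at 93.4 CPM against 20.5 to 27.8, both on small gates. In macrophages without the upper limit the G2/M sum was 5.76 UMIs per 10000 with PancVAX + Anti-PD-1 and 8.52 to 9.03 in the other vaccinated pools. Macrophage Mcm5 was at 17.9 CPM with Anti-PD-1 and 25.3 to 26.5 CPM in the other pools without PancVAX. The share of tumor cells over 10000 UMIs was 66.7% with PancVAX + Anti-PD-1 and 85.2% to 86.2% in the other vaccinated pools. In tumor cells within limits PancVAX + Anti-CTLA-4 had Mki67 at 23.5 CPM against 42.3 to 44.3, and Top2a at 42.3 CPM against 67.1 to 71.8 in the other vaccinated pools.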

How the results depend on the processing

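Of 1864 alternative values for 122 named results, 1681 kept their direction and their side of the threshold, 114 lost the call, 21 gained it, and 48 changed sign, 3 of them for called results. Only counts were followed in comparisons with no called member, other than PancVAX in tumor cells. Of 379 alternative counts 53 moved by over 1.5 times, and the cause was not tested. Plain library sizes were chosen after seeing the data. Among all called genes, the share that was higher went from 60.5% to 71.6% with them for PancVAX in CD8 cells, from 73.6% to 86.5% for macrophages over the limit, and from 62.0% to 72.8%, 41.4% to 51.9%, and 61.3% to 43.0% for Percoll in CD4, Treg, and macrophage cells. It went from 56.4% to 74.8% for Treg against CD4, from 54.1% to 37.6% for CD8 against NK, and from 48.5% to 64.9% for tumor against macrophage. DESeq2 moved it from 49.9% to 61.1% for Percoll in CD8 cells and to 73.4% in macrophages.

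Without the upper limit the member counts were 0 for PancVAX in CD8 and 2 in NK cells, 4, 0, 0, 1, and 2 for Percoll in CD8, CD4, Treg, macrophage, and tumor cells, 12 for CD8 against CD4, and 32 for CD8 against NK. As above, the counts for CD8 against CD4 and against NK are not read as results about the members. Without a filter on low counts they were 1 for PancVAX in CD4, 2 for PancVAX in tumor, and 2 for Anti-CTLA-4 in Treg, and for Percoll 2 in CD4, 1 in NK, and 8 in tumor cells. DESeq2 called for Percoll 7 in CD8, 0 in CD4, 0 in Treg, 5 in macrophage, and 1 in tumor cells. Percoll without the replicate block of treatment gave 7 in CD8 and 0 in CD4, Treg, and tumor cells. Plain library sizes gave 0 for Percoll in Treg, a mitochondrial limit of 5% gave 9 for Percoll in tumor cells, stricter gate purity gave 1 for CD8 against CD4, and fitting 16 libraries gave 1 for PancVAX in tumor cells. The number of all genes called moved with the setting too. For Percoll in CD8 cells 253 genes were called lower in the main fit and 125 with DESeq2. Counts with no share of all genes beside them are not read as results about the members.

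With 1 pool left out the counts ran from 5 to 14 for PancVAX in CD8 cells, 0 to 1 for Anti-CTLA-4 in Treg (1 without Anti-PD-1), 6 to 18, 0 to 2, 0 to 1, 4 to 13, and 1 to 19 for Percoll in CD8, CD4 (2 without PancVAX), Treg, macrophage, and tumor cells, 1 to 4 for CD8 against CD4, and 2 to 5 for Treg against CD4 (5 without Isotype Control). Shares of all genes called in these fits are not given, and the same limit holds.

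Signs changed without the upper limit for PancVAX in CD8 cells (Pcna -0.00018, Mki67 -0.057, Top2a -0.12, Nusap1 -0.028) and in tumor cells (Mki67 -0.17, Mcm5 -0.11, Top2a -0.22). They changed there also for CD8 against CD4 (Pcna 0.34, Mki67 0.14, Mcm5 0.43, Top2a 0.39), Treg against CD4 (Pcna 0.39, Mki67 0.22, Mcm5 0.26, Top2a 0.29, Mcm7 0.20), and tumor against macrophage (Mki67 0.073, Mcm5 0.58, Top2a 0.63). With plain library sizes Pcna was at 0.0073 for PancVAX in tumor cells and -0.017 for Percoll in macrophages, Mki67 and Top2a at 0.058 and 0.055 for Treg against CD4, and Mcm5 and Top2a at 0.14 and 0.076 for tumor against macrophage. In whole tumor alone Mcm5 was at -0.29 for PancVAX in tumor cells. A mitochondrial limit of 5% gave Mcm5 -0.023 for Percoll in CD8, Pcna -0.0036 for Percoll in CD4, and Mcm5 0.023 for tumor against macrophage. Stricter purity gave Mcm5 -0.029 for Percoll in CD8, Mki67 0.33 for Percoll in CD4, and Mki67 0.13 for Treg against CD4. No filter gave Pcna 0.016 and Mcm5 0.037 for CD8 against CD4.

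With 1 pool left out, signs changed within -0.15 to 0.023 (Pcna) and -0.092 to 0.21 (Mcm5) for PancVAX in tumor cells, and for Percoll within -0.030 to 0.054 (Mcm5, CD8), -0.0077 to 0.16 (Pcna, CD4), and -0.14 to 0.031 (Pcna, tumor). They changed within -0.17 to 0.0082 (Pcna), -0.097 to 0.0493 (Mcm5), and -0.24 to 0.0029 (Top2a) for CD8 against CD4, and within -0.26 to 0.0495 (Pcna), -0.21 to 0.11 (Mki67), and -0.30 to 0.049995 (Top2a) for Treg against CD4.

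Over-limit CD4, Treg, and NK cells could not be fitted, having too few pools of 10 cells, and stricter purity was not run for Percoll in NK cells. With few cells in the CD4, Treg, and NK gates, 4 to 21 members passed the filter for PancVAX there, so a difference in the others was not detectable at this depth.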
